A study of Cricetiscus sungorus with 12 samples.

Results

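The microglia genes described here are Aif1, Cx3cr1, Csf1r, P2ry12, Tmem119, C1qa, C1qb, C1qc, Trem2 and Tyrobp, 10 of the 17191 mouse GeneIDs measured in the hypothalamus of the Djungarian hamster. They were chosen by their mouse Entrez GeneIDs as markers of microglia. Hypothalamic mRNA of 12 adult hamsters was sequenced to compare photoperiods and to compare torpor with normothermia, with 4 hamsters per group. LP-NT hamsters stayed in long photoperiod with 16 h of light per day, were normothermic and carried no transmitter. SP-NT and SP-HT hamsters were acclimated to short photoperiod with 8 h of light per day and carried an implanted transmitter for body temperature. SP-NT hamsters showed no torpor on the day of sampling, whereas SP-HT hamsters were hypothermic in spontaneous daily torpor. The hamsters of both short photoperiod groups had expressed torpor before sampling. Both sexes were present in each group, and every hamster was killed with CO2 at about ZT 4 and perfused with buffered saline before the brain was removed. Total expected counts ranged from 20204979 to 24186918 per hamster.

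Microglia are the resident macrophages of the brain and depend on signalling through the Csf1 receptor for their survival. They sense neuronal fractalkine through Cx3cr1 and extracellular nucleotides through P2ry12, and the receptor Trem2 signals through the adaptor Tyrobp. In brain tissue they are a main source of C1q, the recognition molecule of the classical complement pathway, which also tags synapses for removal.

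A pair of libraries needs naming first. In SP-NT replicate 19, labelled male, 3 GeneIDs that were more than 10 times higher in each of the other males than in any female were no higher than in the highest female, and 2 of the 3 were below every female. These GeneIDs were picked after the values were seen. LP-NT replicate 1 stood apart within its group, since its chi-square per degree of freedom against the other LP-NT libraries was 27.8 to 39.2, compared with 9.30 to 14.2 among those.

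All 10 genes had counts above 0 in each of the 12 hamsters and passed the filter on low counts in every comparison. Levels between genes were compared in TPM, which accounts for length. Csf1r had the highest mean level with 77.3 ± 8.43 TPM (SD, n = 12), followed by C1qa with 66.6 ± 6.69 TPM. C1qb with 43.9 ± 6.69 TPM and C1qc with 42.7 ± 4.02 TPM came next, and Cx3cr1 had 21.7 ± 3.09 TPM. Neighbours in this order overlapped in their range over the hamsters, except C1qc and Cx3cr1. The TPM level of P2ry12 was 15.6 ± 2.99, that of Tyrobp 10.9 ± 2.698 and that of Aif1 9.56 ± 1.22. At the lower end of the TPM scale stood Tmem119 with 6.35 ± 0.792 and Trem2 with 5.46 ± 1.24. Here, too, neighbouring ranges overlapped, apart from those of Aif1 and Tmem119. Counting precision differed between the genes, as Csf1r had 856 to 1248 counts per hamster but Tyrobp only 17 to 34, over an effective length of 277 to 305 bases. Among all 17191 GeneIDs ordered by mean TPM, Csf1r held rank 2758 and Trem2 rank 12034.

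**Figure D1:**
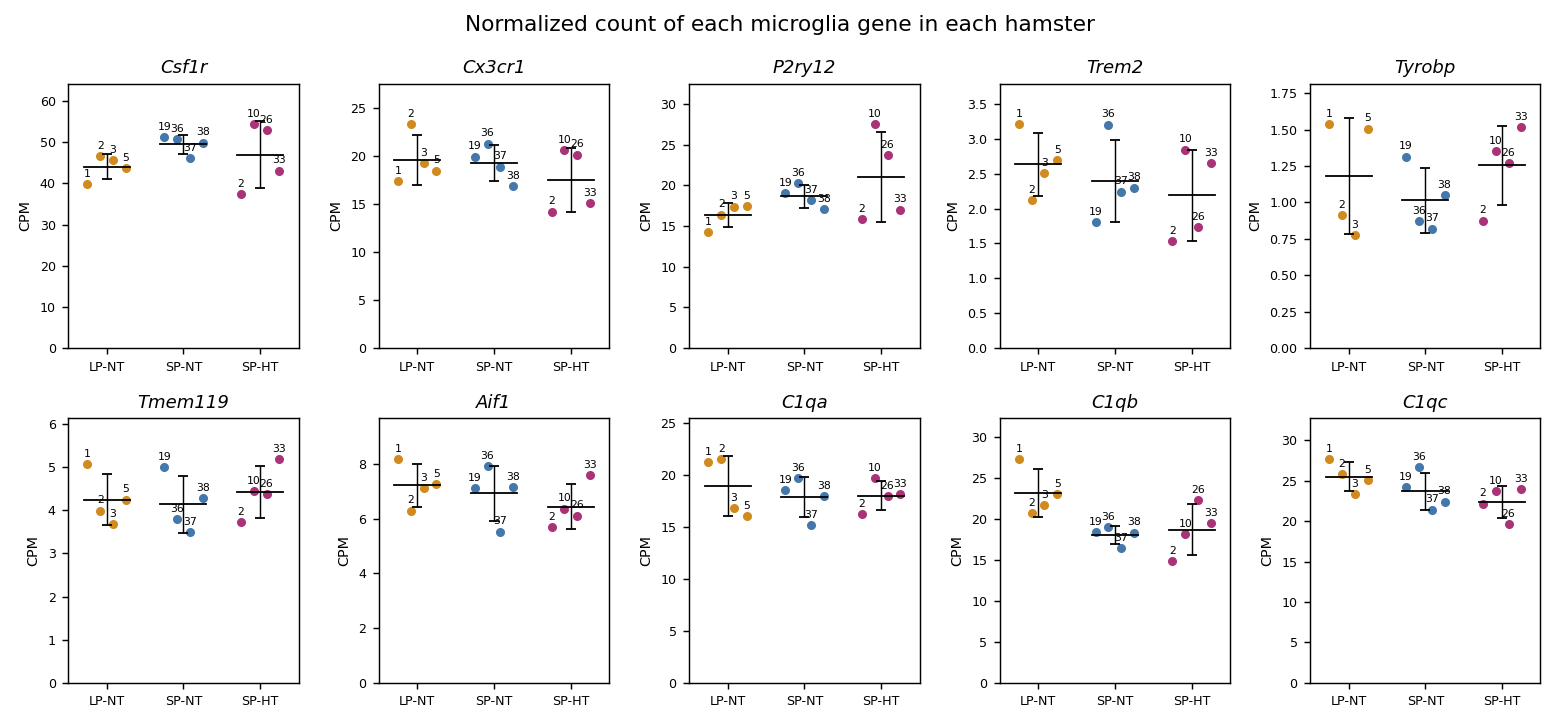
Normalized counts (CPM, y axis) of the 10 microglia genes in LP-NT, SP-NT and SP-HT (x axis), with 1 point per hamster marked by its replicate number, and the mean and SD of the 4 hamsters as lines. C1qb in SP-NT lies below every LP-NT hamster, and P2ry12 in SP-HT is spread over the widest range of its groups.

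Values within a gene are given below as CPM, which are counts scaled to library size (TMM scaling), in the order of replicates 1, 2, 3 and 5 for LP-NT, 19, 36, 37 and 38 for SP-NT, and 2, 10, 26 and 33 for SP-HT. Csf1r (GeneID 12978), the receptor for the growth factors Csf1 and Il34, had 39.9, 46.7, 45.8 and 43.8 CPM in LP-NT. In SP-NT the Csf1r values were 51.2, 50.9, 46.1 and 49.9 CPM. In SP-HT they were 37.5, 54.5, 53.01 and 43.1 CPM. SP-HT held both the lowest and the highest Csf1r value of all hamsters, in replicates 2 and 10, and SP-NT replicate 37 lay within the range of LP-NT, so that all groups overlapped. Mean Csf1r of the LP-NT hamsters was 44.03 ± 3.01 CPM, that of SP-NT 49.5 ± 2.33 CPM and that of SP-HT 47.02 ± 8.11 CPM (SD, n = 4 each).

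Cx3cr1 (GeneID 13051), the fractalkine receptor, had 17.4, 23.4, 19.3 and 18.5 CPM in LP-NT. Its SP-NT values were 19.96, 21.3, 18.9 and 16.9 CPM. Its SP-HT values were 14.2, 20.6, 20.2 and 15.1 CPM. LP-NT replicate 2 was the highest hamster for Cx3cr1 and SP-HT replicates 2 and 33 were the lowest, with overlap among all groups. P2ry12 (GeneID 70839), a receptor for ADP that guides microglial processes, had 14.3, 16.4, 17.4 and 17.5 CPM in LP-NT. The SP-NT hamsters had 19.01, 20.3, 18.2 and 17.1 CPM of P2ry12. The SP-HT hamsters had 15.8, 27.5, 23.7 and 17.01 CPM of P2ry12. SP-HT replicates 10 and 26 exceeded every other hamster in P2ry12, whereas replicates 2 and 33 of the same group lay within the range of LP-NT. The same SP-HT replicates 10 and 26 were also higher than replicates 2 and 33 in Csf1r and Cx3cr1. Over all GeneIDs, replicates 10 and 26 had the lowest chi-square per degree of freedom of the SP-HT pairs, 7.01, whereas replicate 26 with 33 had the highest, 22.1, and the part of this likeness in the receptor values was not tested.

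Trem2 (GeneID 83433), a lipid-sensing receptor of microglia, had 3.21, 2.13, 2.504 and 2.69 CPM in LP-NT. For SP-NT the Trem2 values were 1.81, 3.21, 2.24 and 2.300 CPM. For SP-HT they were 1.53, 2.85, 1.74 and 2.65 CPM. Trem2 overlapped in all groups and was lowest in SP-HT replicates 2 and 26. Tyrobp (GeneID 22177), the signalling adaptor of Trem2, had 1.54, 0.911, 0.774 and 1.51 CPM in LP-NT. Among SP-NT hamsters Tyrobp was at 1.31, 0.874, 0.820 and 1.05 CPM. Among SP-HT hamsters Tyrobp was at 0.875, 1.35, 1.27 and 1.52 CPM. LP-NT alone spanned the whole range of Tyrobp, from replicate 3 to replicate 1.

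Tmem119 (GeneID 231633), a surface protein that marks resident microglia, had 5.07, 3.99, 3.69 and 4.25 CPM in LP-NT. It had 5.01, 3.79, 3.496 and 4.28 CPM in SP-NT. It had 3.72, 4.44, 4.37 and 5.196 CPM in SP-HT. The highest Tmem119 values came from SP-HT replicate 33, LP-NT replicate 1 and SP-NT replicate 19, 1 hamster of each group. Aif1 (GeneID 11629), which encodes the calcium-binding cytoplasmic protein Iba1, had 8.19, 6.29, 7.103 and 7.26 CPM in LP-NT. In SP-NT, Aif1 was at 7.104, 7.91, 5.53 and 7.14 CPM. In SP-HT, Aif1 was at 5.69, 6.37, 6.11 and 7.597 CPM. The groups overlapped in Aif1, with the highest value in LP-NT replicate 1 and the lowest in SP-NT replicate 37.

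The C1q molecule is built from the products of C1qa, C1qb and C1qc. C1qa (GeneID 12259) had 21.2, 21.6, 16.8 and 16.03 CPM in LP-NT. Values of C1qa in SP-NT were 18.6, 19.7, 15.2 and 17.95 CPM. Values of C1qa in SP-HT were 16.2, 19.7, 18.00 and 18.1 CPM. C1qa was highest in LP-NT replicates 1 and 2, while replicates 3 and 5 of that group lay among the lower hamsters. C1qb (GeneID 12260) had 27.4, 20.7, 21.7 and 23.1 CPM in LP-NT. Values of C1qb in SP-NT were 18.4, 19.1, 16.4 and 18.4 CPM. Values of C1qb in SP-HT were 14.8, 18.2, 22.3 and 19.5 CPM. Every SP-NT hamster was below every LP-NT hamster in C1qb, whereas SP-HT replicate 26 lay within the range of LP-NT and replicate 2 was the lowest of all. C1qc (GeneID 12262) had 27.7, 25.9, 23.4 and 25.1 CPM in LP-NT. Values of C1qc in SP-NT were 24.2, 26.7, 21.5 and 22.4 CPM. Values of C1qc in SP-HT were 22.2, 23.7, 19.7 and 23.97 CPM. The groups overlapped in C1qc, and SP-HT replicate 26, the highest hamster of its group in C1qb, was the lowest of all in C1qc.

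Photoperiod was compared at normal body temperature, SP-NT against LP-NT, and the implanted transmitter with its surgery differed with it. SP-NT hamsters had also expressed torpor on earlier days, whereas the body temperature of LP-NT hamsters was not recorded. None of the microglia genes passed the test at an adjusted p of 0.05 (0 of 10; edgeR, p adjusted by Benjamini-Hochberg), beside 0.037% of all GeneIDs, 6 of 16199. With DESeq2 0 of 10 passed, beside 0.204% of all GeneIDs. At an unadjusted p below 0.05 in edgeR, 2 of 10 were counted, C1qb and Csf1r, beside 4.84% of all GeneIDs. The count was 1, C1qb alone, without LP-NT replicate 1 or 5 and without SP-NT replicate 19, 36 or 38. It was also 1, C1qb, with all 12 hamsters in the fit. The share over all GeneIDs at this cut is not given for those fits. In DESeq2 the count was 2, C1qb and Csf1r, beside 4.64% of all GeneIDs. Groups without overlap occurred in 1 of 10, C1qb, beside 3.44% of all GeneIDs. C1qb averaged 18.1 ± 1.13 CPM in SP-NT and 23.2 ± 2.93 CPM in LP-NT (SD, n = 4 each). Its difference was log2(FC) = -0.36, SE 0.0996, with a 95% interval of -0.58 to -0.14, an unadjusted p of 0.00425 and an adjusted p of 0.908 in edgeR, and DESeq2 gave an adjusted p of 0.246. Without LP-NT replicate 1 the log2(FC) of C1qb was -0.27 (SE 0.0806, adjusted p 0.927 in edgeR), and without SP-NT replicate 19 it was -0.37 (SE 0.113, adjusted p 0.917). The C1qb difference thus did not pass the adjusted threshold in edgeR or DESeq2. In bulk tissue, the number of microglia and the RNA per cell cannot be told apart in the level of a gene.

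Csf1r had a difference between SP-NT and LP-NT of log2(FC) = 0.17, SE 0.0681, with an interval of 0.018 to 0.32, an unadjusted p of 0.0318 and an adjusted p of 0.913 in edgeR. Without LP-NT replicate 1, which had the lowest Csf1r value of its group, the log2(FC) was 0.12 (SE 0.0577, unadjusted p 0.0566), and without SP-NT replicate 19 it was 0.15 (SE 0.0792, unadjusted p 0.0841). P2ry12, also higher in the SP-NT mean, had log2(FC) = 0.18 with an interval of -0.021 to 0.39 that included 0. Intervals of the remaining genes except C1qb included 0 as well, with -0.27 to 0.21 for Cx3cr1, -0.31 to 0.090 for C1qc and, as the widest, -0.85 to 0.41 for Tyrobp. The median log2(FC) of the 10 genes was -0.072, compared with -0.0024 over all GeneIDs tested, and 8 of the 10 had a negative sign, as had 50.8% of all GeneIDs. Without LP-NT replicate 1 this median was -0.028 and 6 of 10 were negative, without SP-NT replicate 37 it was -0.015, also with 6 of 10, and without SP-NT replicate 36 it was -0.13 with 7 of 10. Without LP-NT replicate 3 it was -0.12 with 8 of 10.

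**Figure D2:**
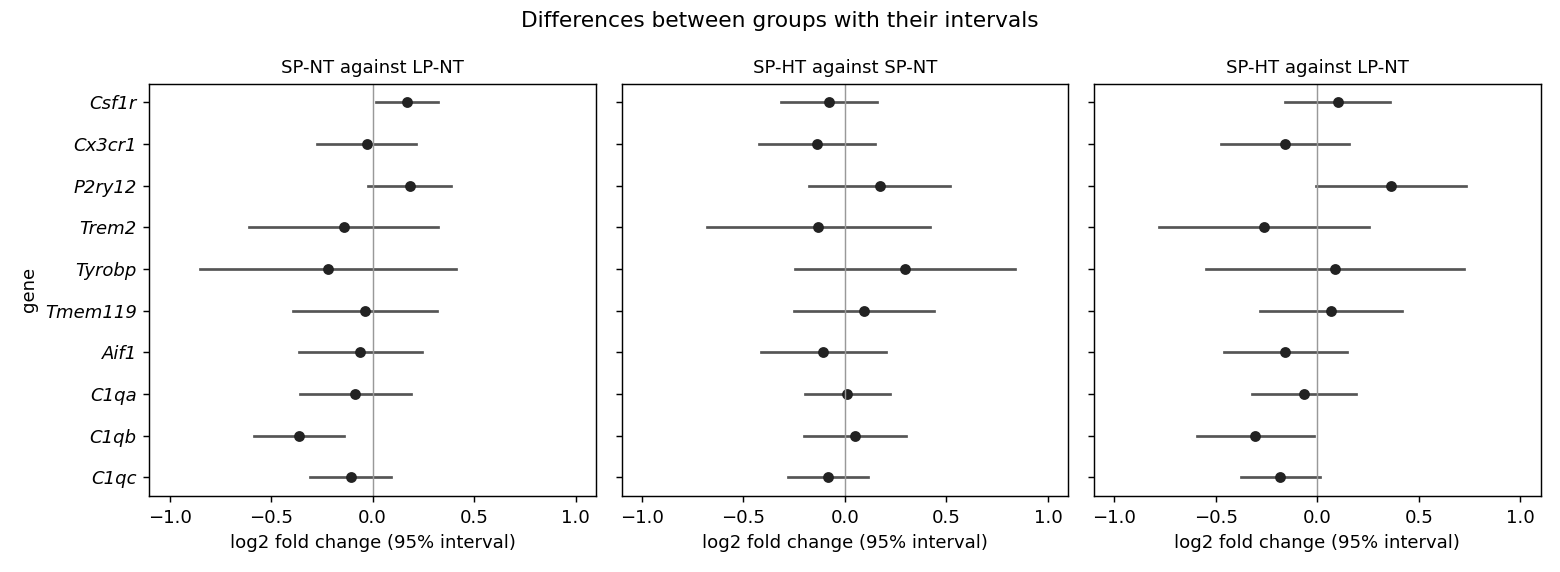
Difference of each microglia gene (y axis) in log2 fold change (x axis) in the 3 comparisons, as points with 95% intervals from edgeR. The interval of C1qb excludes 0 in both comparisons with LP-NT, and that of Csf1r in SP-NT against LP-NT, before adjustment for the number of GeneIDs tested.

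Torpor was compared within short photoperiod, SP-HT against SP-NT. No microglia gene passed the edgeR test (0 of 10), although 2.4% of all GeneIDs did, 389 of 16195, with 82 higher and 307 lower in SP-HT. In DESeq2 0 of 10 passed beside 6.28% of all GeneIDs, with 413 higher and 604 lower. At an unadjusted p below 0.05, 0 of 10 were counted in edgeR beside 18.4% of all GeneIDs, and 0 of 10 in DESeq2 beside 18.2%. Groups without overlap occurred in 0 of 10, beside 12.1% of all GeneIDs. The intervals state how large a difference these data could hold. For Csf1r, log2(FC) was -0.078 with an interval of -0.31 to 0.16. For C1qa it was 0.011 with an interval of -0.20 to 0.22. The C1qb difference was 0.049 with an interval of -0.20 to 0.30, and that of C1qc was -0.083 with an interval of -0.28 to 0.11. Leaving out 1 hamster at a time, the log2(FC) ranged over -0.15 to 0.020 for Csf1r, -0.057 to 0.062 for C1qa, -0.048 to 0.15 for C1qb and -0.13 to -0.020 for C1qc. P2ry12 was higher in the SP-HT mean, 21.02 ± 5.55 CPM against 18.6 ± 1.37 CPM (SD, n = 4 each), with log2(FC) = 0.17, SE 0.158 and an adjusted p of 0.609 in edgeR. This log2(FC) was 0.016 without SP-HT replicate 10, 0.11 without replicate 26, 0.26 without replicate 33 and 0.29 without replicate 2. Cx3cr1 pointed the other way with log2(FC) = -0.14, SE 0.129 and an interval of -0.42 to 0.15, and ranged from -0.22 without SP-HT replicate 10 to -0.045 without SP-HT replicate 2. Trem2 and Tyrobp, the receptor and its adaptor, had log2(FC) of -0.13 and 0.30, each with an interval that included 0. Leaving out 1 hamster at a time, Trem2 ranged over -0.28 to 0.044 and Tyrobp over 0.19 to 0.45. For Tmem119 the log2(FC) was 0.094 with an interval of -0.25 to 0.44, and it was 0.011 without SP-HT replicate 33 and 0.023 without SP-NT replicate 37. For Aif1 the interval was -0.41 to 0.20. SP-HT held 3 males and 1 female by label, compared with 2 and 2 in SP-NT. Sex as a covariate followed the labels, so SP-NT replicate 19 entered as male, and no fit with this covariate left that hamster out. With sex as a covariate the log2(FC) was 0.17 for Tyrobp, -0.14 for Csf1r, 0.12 for P2ry12 and 0.015 for Tmem119. In this fit those of C1qa and C1qb changed sign to -0.019 and -0.010. Positive and negative signs were equal in number, 5 and 5, with a median log2(FC) of -0.033, compared with -0.0027 over all GeneIDs. Leaving out 1 hamster at a time, this median ranged from -0.082 without SP-NT replicate 37 to 0.048 without SP-NT replicate 36, and 7 of 10 signs were positive without SP-HT replicate 2, whereas 7 of 10 were negative with sex as a covariate. SP-NT replicate 19 belongs to this comparison, and without it 0 of 10 microglia genes passed in edgeR, while the count over all GeneIDs was 124 and the log2(FC) was 0.20 for Tmem119, -0.24 for Trem2 and 0.45 for Tyrobp.

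In the remaining pair, SP-HT against LP-NT, photoperiod, torpor, the implanted transmitter and the share of males by label differed together. It shares its hamsters with the comparisons above. Again 0 of 10 microglia genes passed in edgeR, beside 1.37% of all GeneIDs, 221 of 16157, and 0 of 10 passed in DESeq2, beside 4.37%. At an unadjusted p below 0.05 in edgeR, C1qb was the 1 of 10 counted, beside 15.1% of all GeneIDs, and 0 of 10 had groups without overlap, beside 10.6%. DESeq2 counted 2 of 10, C1qb and P2ry12, beside 15% of all GeneIDs. The same 2 were counted in edgeR with other size factors, without a filter on low counts or with all 12 hamsters in the fit. For these edgeR settings and for 1 hamster fewer, the share over all GeneIDs at this cut is not given. With 1 hamster fewer the edgeR count was 0 without LP-NT replicate 1 or 5 or SP-HT replicate 10, 1 with P2ry12 in place of C1qb without SP-HT replicate 2 or 33, and 2, C1qb and C1qc, without LP-NT replicate 3. C1qb had log2(FC) = -0.30, SE 0.130, an interval of -0.59 to -0.018 and an adjusted p of 0.298 in edgeR. Without LP-NT replicate 1 the log2(FC) of C1qb was -0.22 (SE 0.125) with an unadjusted p of 0.106 and an adjusted p of 0.428 in edgeR, and without SP-HT replicate 2 it was -0.20 with an unadjusted p of 0.124. It was -0.40 (unadjusted p 0.0121) without SP-HT replicate 26, and -0.38 with an unadjusted p of 0.00825 and an adjusted p of 0.142 with sex as a covariate. P2ry12 had the largest positive difference of the 10 genes, log2(FC) = 0.36, SE 0.167, with an interval of -0.0057 to 0.73 and an adjusted p of 0.340 in edgeR. Leaving out 1 hamster at a time moved the P2ry12 log2(FC) over 0.21 to 0.49. C1qc was lower in the SP-HT mean, 22.4 ± 1.97 CPM against 25.5 ± 1.81 CPM (SD, n = 4 each), with an interval of -0.38 to 0.014, and C1qa had an interval of -0.32 to 0.19. The median log2(FC) of the 10 genes was -0.11, compared with -0.00086 over all GeneIDs, and was -0.052 without LP-NT replicate 1, -0.039 without LP-NT replicate 2 and -0.035 without SP-HT replicate 2.

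The summed level of the 10 genes was 163.0 ± 4.68 CPM for LP-NT, 161.5 ± 11.04 CPM for SP-NT and 159.0 ± 20.5 CPM for SP-HT (SD, n = 4 each). SP-HT contained the hamsters with the lowest and the highest sum, replicate 2 with 132.6 CPM and replicate 10 with 179.3 CPM.

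**Figure D3:**
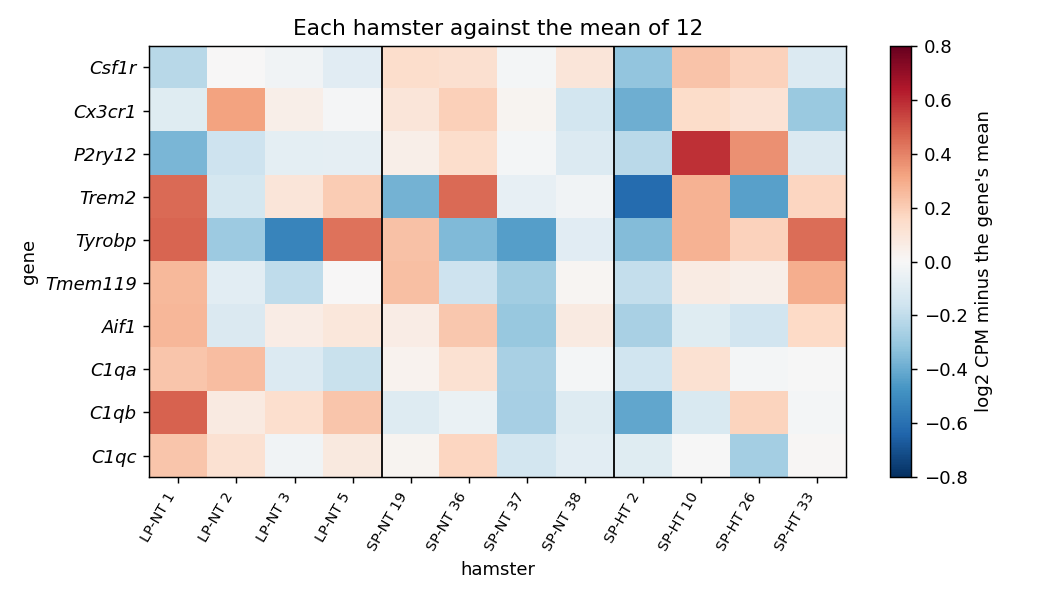
Log2 CPM of each microglia gene (y axis) in each hamster (x axis), minus the mean of that gene over the 12 hamsters, as colour. SP-HT replicate 2 is below the mean in all 10 genes, and SP-HT replicates 10 and 26 are above it in Csf1r, Cx3cr1 and P2ry12.

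The C1q chains were also compared within a hamster, as ratios of TPM, after their values had been seen and without a test. C1qb relative to C1qa was 0.780, 0.579, 0.779 and 0.862 in LP-NT. In SP-NT this C1qb ratio was 0.598, 0.582, 0.654 and 0.616, and in SP-HT it was 0.547, 0.552, 0.742 and 0.653. LP-NT replicate 2 lay below every SP-NT hamster in the C1qb ratio, whereas the other LP-NT hamsters lay above them. C1qc relative to C1qa averaged 0.670 ± 0.0733 for LP-NT, 0.654 ± 0.0345 for SP-NT and 0.610 ± 0.0631 for SP-HT (SD, n = 4 each), and the groups overlapped.

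**Figure D4:**
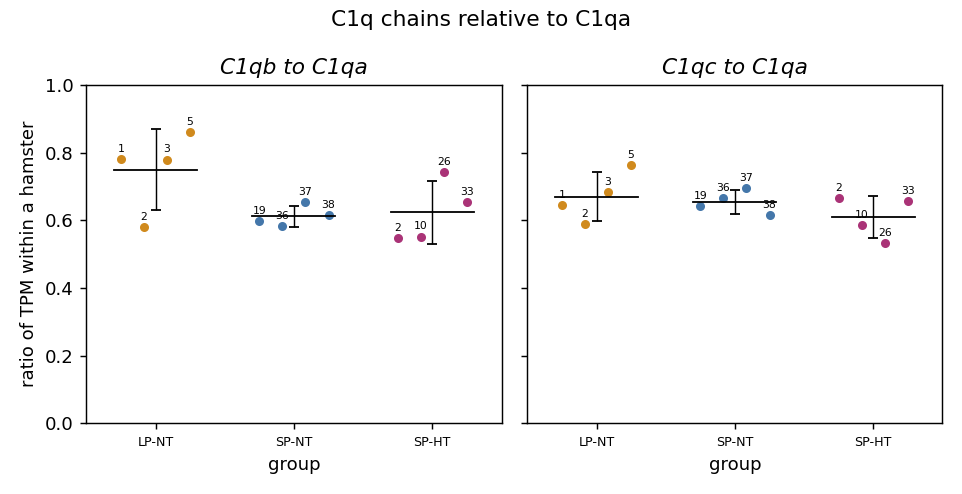
Ratio of TPM (y axis) of C1qb to C1qa and of C1qc to C1qa in each hamster, by group (x axis), with points marked by replicate number and the mean and SD as lines. LP-NT replicate 2 has a C1qb ratio of 0.579, within the range of the short photoperiod hamsters.

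Likeness between the genes was described by Pearson's r of log2 CPM over the 12 hamsters, ranked among 16379 GeneIDs, with no test. Tmem119 and Tyrobp were each other's closest GeneID, with r = 0.889 and Spearman's rho = 0.902. Leaving out the 2 hamsters farthest from the median of Tmem119, this r was 0.855. P2ry12 was the GeneID at rank 11 for Csf1r, with r = 0.813, rho = 0.846 and r = 0.831 without the 2 hamsters farthest from the median of Csf1r. In the other direction, Csf1r was at rank 69 for P2ry12. No other pair of microglia genes was among the 20 closest. The C1q chains were less alike, since C1qb had r = 0.435 with C1qa and r = 0.439 with C1qc, while C1qa and C1qc had r = 0.609. Without LP-NT replicate 1 and SP-HT replicate 2, the hamsters farthest from the median of C1qb, its r was 0.0292 with C1qa and 0.0620 with C1qc. Leaving out instead the 2 hamsters farthest from the median of the partner, it was 0.330 with C1qa and 0.621 with C1qc. Between P2ry12 and C1qc, r was -0.374, the lowest value among the microglia genes, but -0.144 without SP-HT replicates 10 and 26 and 0.154 without SP-HT replicate 26 and LP-NT replicate 1.

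**Figure D5:**
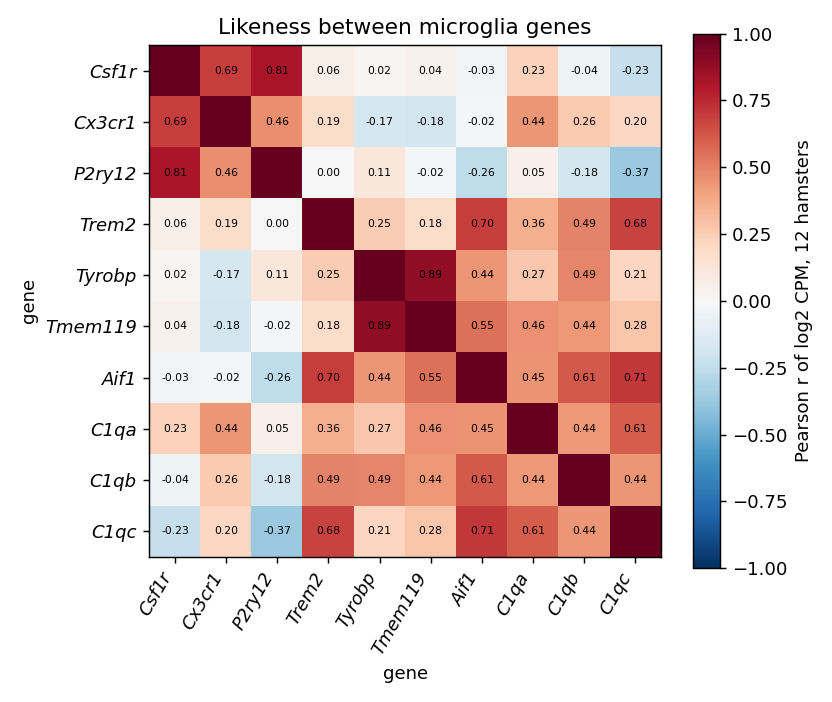
Pearson's r of log2 CPM over 12 hamsters between the microglia genes (both axes), written in each square and shown as colour. The highest value, 0.889, is that of Tmem119 with Tyrobp, and the lowest, -0.374, that of P2ry12 with C1qc.

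Males were compared with females over all 12 hamsters by labelled sex, with the group as a covariate. No microglia gene and no other GeneID passed in edgeR, 0 of 10 and 0% of 16380, whereas DESeq2 gave 0 of 10 beside 0.0794% of all GeneIDs. At an unadjusted p below 0.05 in edgeR, 0 of 10 were counted beside 4.57% of all GeneIDs, and 0 of 10 in DESeq2 beside 4.37%. With 1 hamster fewer the edgeR count was 3 without LP-NT replicate 3, namely Tmem119, C1qb and Tyrobp. It was 2 without SP-NT replicate 36, Aif1 and C1qb, and 1 without LP-NT replicate 5, Tyrobp. The share over all GeneIDs at this cut is not given for these fits, so the counts stand without a comparison. Tyrobp had the largest difference of the 10 genes, log2(FC) = 0.31, SE 0.230, with an interval of -0.18 to 0.81. Leaving out 1 hamster at a time, Tyrobp ranged over 0.20 to 0.49. Tmem119 had a difference of log2(FC) = 0.24, SE 0.121 with an interval of -0.020 to 0.50. C1qb had one of log2(FC) = 0.19, SE 0.0911 with an interval of -0.012 to 0.38. Without SP-NT replicate 19, the log2(FC) was 0.20 for Tmem119 and 0.21 for C1qb, and 9 GeneIDs passed in edgeR, none of them a microglia gene. Without SP-HT replicate 2, the only hamster labelled female in its group, the log2(FC) of C1qb was 0.10. The median log2(FC) of the 10 genes was 0.095, compared with -0.0011 over all GeneIDs. Of the 10 signs 8 were positive, as were 49.6% over all GeneIDs. This median was 0.013 with 5 of 10 positive without SP-HT replicate 2, and 0.19 with 10 of 10 without SP-NT replicate 36.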

How the data were processed

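The authors pooled the reads of all hamsters into a de novo assembly, retained those transcripts that blastx assigned to a mouse protein (GRCm39), and quantified reads per GeneID. The submitters' processing notes name FastQC 0.11.9, Trim Galore 0.6.6, Bowtie 1.3.0 and RSEM 1.3.1. The deposited expected counts are estimated and not normalized, and the deposited TPM values are scaled by effective length by the authors. Isoforms, and paralogs closest to 1 mouse protein, fall under 1 GeneID.

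Expected counts were rounded. Where the 8 hamsters compared (12 for the sexes) had 10 or more counts together, a GeneID was tested with the quasi-likelihood test of edgeR 4.0.16 in R 4.3.3 after TMM scaling, with Benjamini-Hochberg adjustment over all GeneIDs tested and a threshold of 0.05. Intervals cover 95% and used the degrees of freedom of that test. DESeq2 1.42.0, other size factors, other filters, a fit of all 12 hamsters, sex as a covariate, an offset for effective length and leaving out each hamster were alternatives. The code was tested on simulated data.

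Not every microglia gene is given with a value in every comparison. For likeness, microglia genes among the 20 closest are named, with the pairs of C1q chains and the pair with the lowest r. The members, lists and tests were chosen with earlier results of these data known. Lists of other cell types and pathways had been planned by symbol. The files pair no names with GeneIDs and no table of names was used here, so the GeneIDs of those symbols, written from memory, could not be checked. Results for those lists, markers of other cell types among them, were computed and seen, then dropped for that reason, and are not reported here. Only the 10 microglia genes are named.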

Additional observations from a re-analysis of the deposited data

How the results depend on the processing

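No paired analysis was possible because each hamster was sampled once, in a single group. A replicate number shared by groups does not mark a shared hamster, litter or day. No microglia gene passed the threshold in any comparison under any alternative run. With settings other than a left-out hamster, 70 of 70 log2(FC) values kept their sign in SP-NT against LP-NT, 68 of 70 in SP-HT against SP-NT, 70 of 70 in SP-HT against LP-NT and 30 of 30 between the sexes. The exceptions were C1qa with -0.019 and C1qb with -0.010 with labelled sex as a covariate, where SP-NT replicate 19 entered as male. Leaving out 1 hamster at a time, signs changed for the genes listed next, among them Trem2 with a main log2(FC) of -0.13 in SP-HT against SP-NT. In SP-NT against LP-NT the log2(FC) ranged over -0.13 to 0.036 for Aif1, -0.082 to 0.064 for Cx3cr1 and -0.14 to 0.059 for Tmem119. In SP-HT against SP-NT it ranged over -0.15 to 0.020 for Csf1r, -0.28 to 0.044 for Trem2, -0.057 to 0.062 for C1qa and -0.048 to 0.15 for C1qb. In SP-HT against LP-NT it ranged over -0.13 to 0.0082 for C1qa, -0.067 to 0.24 for Tyrobp and -0.019 to 0.16 for Tmem119. Between the sexes it ranged over -0.16 to 0.056 for Cx3cr1, -0.049 to 0.036 for C1qc, -0.012 to 0.16 for Csf1r, -0.10 to 0.13 for P2ry12 and -0.083 to 0.25 for Trem2.

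Counts over all GeneIDs moved more. DESeq2 gave 33 in SP-NT against LP-NT, 1017 in SP-HT against SP-NT, 706 in SP-HT against LP-NT and 13 between the sexes. In SP-HT against SP-NT the count was 242 with sex as a covariate, 146 with the offset for effective length, and 104 to 318 without 1 hamster, lowest without SP-NT replicate 38. In SP-HT against LP-NT it was 612 with all 12 hamsters in the fit, 102 with the offset for effective length, and 55 to 200 without 1 hamster. Between the sexes it was 3 with no filter on low counts and 0 to 9 without 1 hamster, 9 without SP-NT replicate 19 and 3 without SP-NT replicate 38. In SP-NT against LP-NT it was 5 to 8 without 1 hamster. A fit with 1 hamster fewer has fewer samples; for the other settings the cause was not tested. The intervals of Tyrobp and Trem2 were the widest in each comparison, and the parts of counting and of spread between hamsters in that width were not separated.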
